A study of Rattus norvegicus with 9 samples.

Results

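The T cell and leukocyte surface genes are 10 genes whose proteins sit on, or just under, the membrane of T lymphocytes and other white blood cells: Cd3g, Cd3d, Cd8a, Cd8b, Cd4, Cd5, Cd2, Lck, Cd53 and Ptprc. Every probe set whose only gene symbol in the platform annotation was 1 of these names was taken. This gave all 10 genes, of 4736 named on the rat U34A array, and 14 of its 8799 probe sets, with 2 for Cd3g, 2 for Cd5, 3 for Ptprc and 1 for each other gene. The RNA came from non-tumor segments of the proximal colon of male Sprague Dawley rats that ate soy protein isolate (SPI), whey protein hydrolysate (WPH) or casein (CAS) as their only protein source throughout life. All rats, those on casein included, had received 2 weekly injections of 15 mg/kg azoxymethane (AOM), a colon carcinogen, starting at 90 days of age, and were sampled 40 weeks later. For each diet, RNA of 7 rats was combined in equal amounts into 1 pool, and 3 labelled targets were prepared from 8 µg of the pool for 3 arrays, so that the 9 arrays hold 3 pools. The spread between arrays of a diet is thus technical, and no test here reaches from pools to single rats. The question was whether transcripts of these genes differed in level between rats on SPI or WPH and rats on CAS, the control diet.

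The antigen receptor of a T cell cannot signal by itself. It is held in the membrane together with the CD3 chains, whose tails are phosphorylated by the tyrosine kinase Lck once the receptor is engaged. CD4 marks helper T cells and CD8 marks cytotoxic T cells, and both bring Lck to the receptor by binding its partner molecule on the presenting cell. CD5 damps and CD2 supports this signal, whereas CD53 and CD45 (the product of Ptprc) are carried by nearly all white blood cells. The colon holds T cells in its lamina propria, in lymphoid follicles and between the epithelial cells, where many carry a form of CD8 made of the alpha chain alone.

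The signals were those of the MAS 5.0 software on a linear scale, scaled by the authors to an average of 500 per array and deposited without detection calls. A signal of 100 therefore served as a stand-in for a measurable level, and the 5606 probe sets with a mean of at least 100 in at least 1 diet were compared by limma on log2 signals, controls left out. Median signals were 154 to 162 on SPI, 149 to 163 on WPH and 156 to 166 on CAS arrays. By the hybridization time in the instrument record, the arrays fell into 3 rounds, a new one starting after a gap over 30 minutes. They are called wash rounds here, although no label names them so. SPI replicates 1 and 2 and WPH replicates 1 and 3 were in the second. SPI replicate 3 was alone in the third, and WPH replicate 2 and all CAS arrays were in the first. SPI thus shared no round with CAS, and a fit that takes wash round as a block rests, for WPH against CAS, on WPH replicate 2 alone. The ratio of 3' to 5' signal for β-actin, a measure of RNA or label length, was 2.14 to 2.36 with SPI, 2.53 to 3.50 with WPH and 1.83 to 1.88 with CAS, and so moved with diet, whereas that of glyceraldehyde-3-phosphate dehydrogenase overlapped between diets. The part of either in the results below was not tested, apart from the fits with wash round.

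Transcripts of Cd3g, Cd3d and Cd8a, which encode 2 chains of CD3 and the alpha chain of CD8, were more abundant in colons of WPH-fed and of SPI-fed rats than in those of CAS-fed rats, whereas CD8 beta, CD4 and CD45 transcripts did not pass the test in any comparison. Of the 13 member probe sets that could be compared, 8 from 6 genes (Cd3g, Cd3d, Cd8a, Cd5, Lck and Cd53) were higher with WPH than with CAS at an adjusted p under 0.05, and 0 were lower, against a background of 20.9% higher and 17.9% lower among all probe sets compared. With SPI, 5 probe sets from 4 genes (Cd3g, Cd3d, Cd8a and Cd53) were higher than with CAS and 0 were lower, where 12.0% of all probe sets were higher and 10.2% lower. Between SPI and WPH, 0 members were higher and 2 (Cd5 and Lck) were lower with SPI, against 10.1% higher and 9.83% lower over all probe sets. The comparisons of SPI and of WPH with CAS share the same 3 CAS arrays and are therefore not independent. In the fit blocked by wash round (the wash-blocked fit), 6 of the 8 probe sets still passed for WPH against CAS. For SPI, 2 of the 5 still passed against CAS and 0 of the 2 against WPH. Calls also fell across the series in this fit, for WPH against CAS as well. With SPI, 100 of all 5606 probe sets were higher than with CAS, against 673 in the main fit. Lower than with WPH were 208, against 551. SPI against CAS is reached there only through WPH, since SPI shared no round with CAS.

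The 13 counted above exclude Cd2, which lay under 100 in every diet. Of the 13, 9 had a mean of at least 100 in all 3 diets. The other 4 (1 of Cd3g, that of Cd8a and both of Cd5) had a mean under 100 with CAS and entered the comparison through the SPI or WPH arrays, so that some difference from CAS was built in. The SPI calls against CAS that held in the wash-blocked fit, Cd3g S79711_g_at and Cd8a, were both among these 4. Those of Cd3g S79711_at, Cd3d and Cd53, which belong to the 9, did not hold there, at log2 changes of 1.17, 1.02 and 0.77. Over the 9, a choice made after the data were seen, 4 were higher with WPH than with CAS (Cd3g S79711_at, Cd3d, Lck and Cd53) and 0 lower, with a median log2 change of 0.28, against 0.06 over the 4819 probe sets at 100 or more in all diets, of which 22.1% were higher and 17.3% lower. With SPI, 3 of the 9 were higher than with CAS and 0 lower (median 0.50, against -0.0087, with 12.3% higher and 10.3% lower over the 4819). Between SPI and WPH, Lck alone passed, lower with SPI. Because colon tissue was measured whole, more T cells and more RNA per T cell cannot be told apart. The part of the shifts in epithelial and smooth muscle markers, given below, was not tested.

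**Figure D1:**
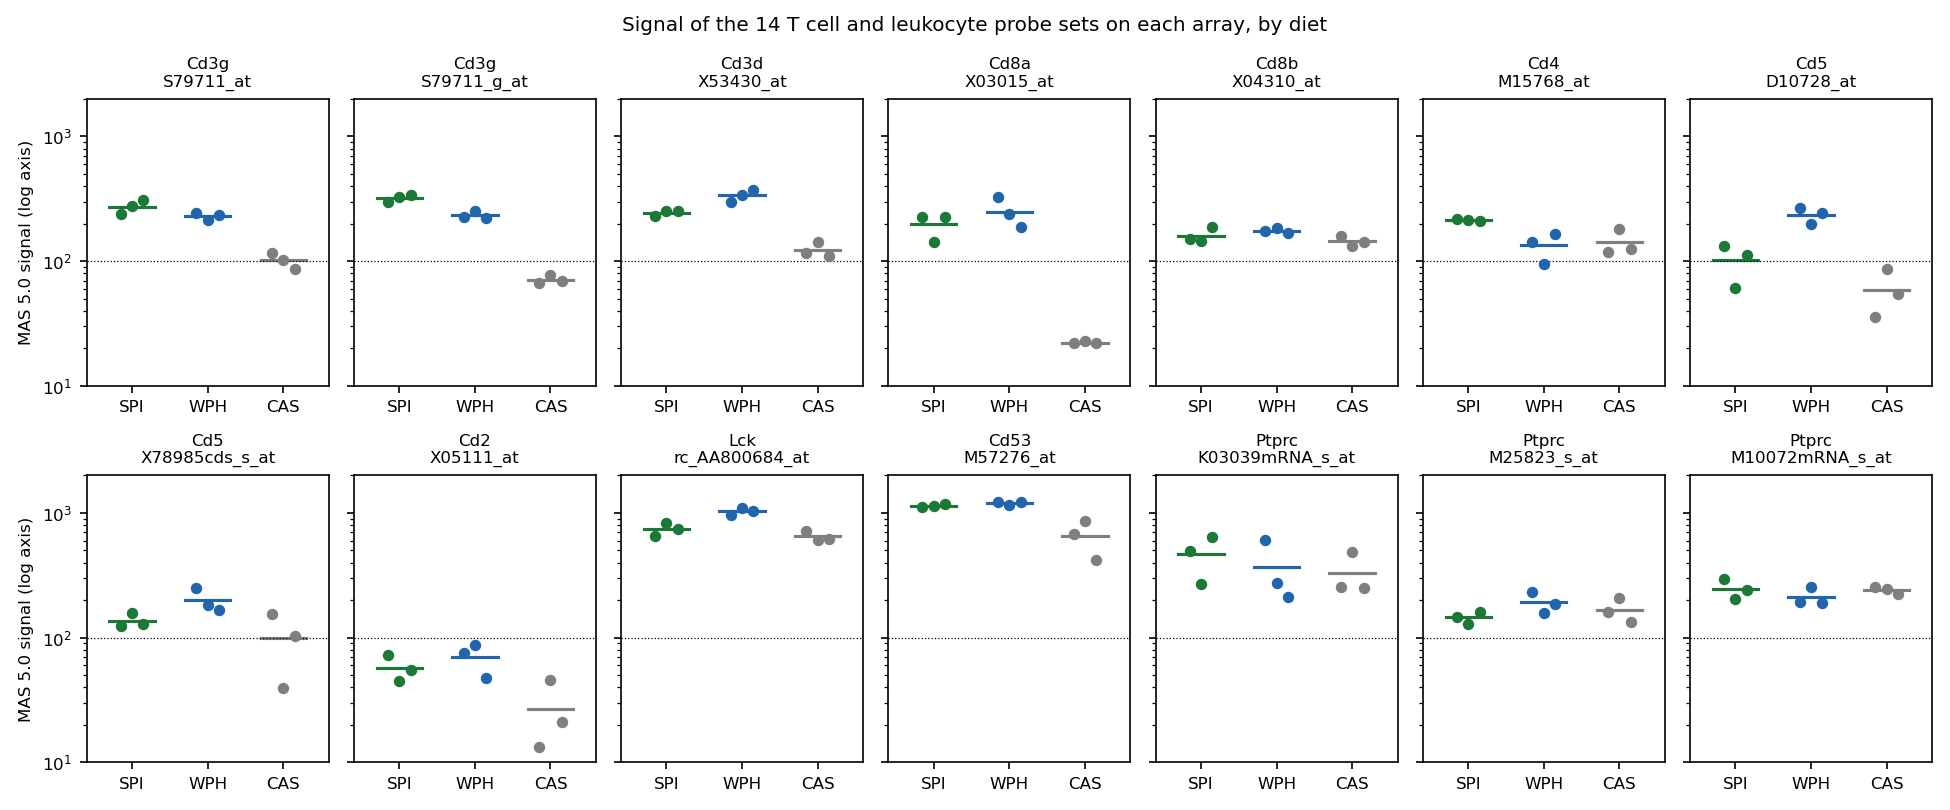
MAS 5.0 signal (vertical log axis) of the 14 probe sets on each array, with SPI, WPH and CAS from left to right, replicates 1 to 3 as points, the diet mean as a bar and a dotted line at 100. The Cd8a points lie at 143.2 or more on the SPI and WPH arrays and at 23.0 or less on the CAS arrays, whereas those of Cd8b lie between 132.5 and 188.4 in all diets.

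Cd3g and Cd3d encode the gamma and delta chains of CD3. Cd3g probe set S79711_g_at had signals of 297.1, 329.5 and 337.5 with SPI, 226.6, 254.2 and 220.7 with WPH, and 66.6, 77.0 and 70.0 with CAS. Every SPI array was above every WPH array, and all of these were far above the CAS arrays. The increase was at least 3.21-fold with SPI (log2 change 2.17 ± 0.160, SE; limma adjusted p = 3.79e-06) and at least 2.34-fold with WPH (log2 change 1.72 ± 0.160; adjusted p = 7.36e-06), where the CAS signals, all under 100, were set to 100 for the fold. The second Cd3g probe set, S79711_at, is based on the same accession and is no independent measurement. It gave 238.7, 274.9 and 306.9 with SPI, 243.0, 213.0 and 234.4 with WPH, and 117.3, 102.0 and 87.1 with CAS, so that the lowest SPI or WPH array (213.0) lay above the highest CAS array (117.3). Its signal was 2.68-fold higher with SPI (log2 change 1.42; adjusted p = 0.000198) and 2.25-fold higher with WPH (log2 change 1.18; adjusted p = 0.000267) than with CAS. The SPI call of this probe set, though not that of S79711_g_at, was lost in the wash-blocked fit (log2 change 1.17; adjusted p = 0.0935).

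Cd3d probe set X53430_at had signals of 231.5, 253.2 and 251.2 with SPI, 299.9, 341.3 and 371.9 with WPH, and 116.7, 141.7 and 110.6 with CAS. The 3 diets did not overlap, and here WPH was the highest. The level was 2.75-fold higher with WPH than with CAS (log2 change 1.46 ± 0.158; adjusted p = 2.5e-05) and 1.99-fold higher with SPI than with CAS (log2 change 1.00 ± 0.158; adjusted p = 0.00103). The SPI change was of like size in the wash-blocked fit, 1.02, but did not pass (adjusted p = 0.125). Between SPI and WPH the 2 genes leaned in opposite directions, with log2 changes of 0.46 for Cd3g S79711_g_at (95% interval 0.11 to 0.81; adjusted p = 0.0687), 0.24 for S79711_at (-0.14 to 0.63; adjusted p = 0.381) and -0.46 for Cd3d (-0.81 to -0.11; adjusted p = 0.0675), none of which passed.

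Cd3g and Cd3d are neighbours on rat chromosome 8 and are read away from each other. In the RefSeq promoter windows, which run from 250 bases before to 50 bases after a start of transcription in build GRCr8, 8 of the 10 members were found, without Cd4 and Cd8b. The windows of Cd3g, on the minus strand at chr8:54183869-54184168, and Cd3d, on the plus strand at chr8:54185269-54185568, lie 1100 bases apart. The window of Cd8a, on the plus strand at chr4:104923866-104924165, is shown with them because these were the 3 T cell genes that were higher with both SPI and WPH. Each is written 5' to 3' on its own strand, with capitals for the letters AGGAAG or their reverse complement, a core that transcription factors of the ETS family bind.
Cd3g: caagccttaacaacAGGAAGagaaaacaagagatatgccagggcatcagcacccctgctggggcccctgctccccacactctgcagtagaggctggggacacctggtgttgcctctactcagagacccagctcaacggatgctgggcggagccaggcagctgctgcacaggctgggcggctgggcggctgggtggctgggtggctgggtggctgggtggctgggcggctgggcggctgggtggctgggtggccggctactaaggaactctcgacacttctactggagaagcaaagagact
Cd3d: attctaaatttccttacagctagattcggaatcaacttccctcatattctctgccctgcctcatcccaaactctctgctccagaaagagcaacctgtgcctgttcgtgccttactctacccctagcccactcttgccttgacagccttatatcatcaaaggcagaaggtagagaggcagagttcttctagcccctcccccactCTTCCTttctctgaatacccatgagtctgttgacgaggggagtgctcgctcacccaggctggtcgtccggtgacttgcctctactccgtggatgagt
Cd8a: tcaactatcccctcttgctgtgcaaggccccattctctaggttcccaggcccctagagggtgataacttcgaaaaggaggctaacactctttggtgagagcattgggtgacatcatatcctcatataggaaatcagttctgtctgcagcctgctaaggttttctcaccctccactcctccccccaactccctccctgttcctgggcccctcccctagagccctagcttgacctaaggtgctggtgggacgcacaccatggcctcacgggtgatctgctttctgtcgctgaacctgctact
AGGAAG was searched on both strands and lies once in the Cd3g window, from base -236, once in that of Cd3d, from base -47, and nowhere in that of Cd8a. It occurs in 34.5% of all 33469 RefSeq rat promoter windows. Of the other members, Cd5, Cd53, Ptprc and both Lck windows hold it and Cd2 does not. The RUNX core TGTGGT, present in 17.3% of all windows, was found in that of Cd2 and in 1 of the 2 of Lck, and in none of Cd3g, Cd3d or Cd8a. TATAAA (14.2% of all windows) and the GATA core AGATAA (11.6%) were in none of the 9 member windows. The letters were chosen with the Cd3g and Cd3d sequences in view, overlap none of the others searched, and describe these windows only.

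The genes of the CD8 dimer differed from each other. Cd8a encodes the alpha chain, which forms CD8 alone or with the beta chain. Its probe set X03015_at had signals of 227.3, 143.2 and 226.8 with SPI, 325.3, 237.9 and 186.8 with WPH, and 21.9, 23.0 and 21.9 with CAS. The SPI and WPH arrays overlapped each other, and all 6 stood above the 3 CAS arrays, which were nearly equal and far under 100. The increase was at least 2.5-fold with WPH (adjusted p = 3.26e-06) and at least 1.99-fold with SPI (adjusted p = 2.12e-05). The fitted log2 changes, 3.45 ± 0.287 with WPH and 3.13 ± 0.287 with SPI, rest on CAS signals that may lie below what the array can measure. With signals under 50 raised to 50 they were 2.28 with WPH and 1.96 with SPI, and that of Cd3g S79711_g_at stayed at 2.17 with SPI. Between SPI and WPH the log2 change was -0.32 (95% interval -0.96 to 0.31; adjusted p = 0.479). Both calls against CAS held in the wash-blocked fit and when any 1 array was left out.

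Cd8b encodes the beta chain, which together with the alpha chain marks conventional cytotoxic T cells. Probe set X04310_at gave 149.5, 143.9 and 188.4 with SPI, 175.6, 183.5 and 168.7 with WPH, and 160.0, 132.5 and 142.2 with CAS. The SPI arrays overlapped both other diets, and although each WPH array exceeded each CAS array the steps were small. The level averaged 161 ± 24.2 with SPI, 176 ± 7.41 with WPH and 145 ± 13.95 with CAS (SD, n = 3 arrays). The log2 change was 0.28 for WPH against CAS (95% interval -0.11 to 0.68; adjusted p = 0.245) and 0.14 for SPI against CAS (-0.25 to 0.54; adjusted p = 0.637).

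Cd4 encodes the coreceptor of helper T cells, which macrophages of the rat carry as well. Probe set M15768_at gave 219.4, 212.2 and 209.0 with SPI, 142.3, 95.3 and 164.5 with WPH, and 118.4, 181.9 and 126.2 with CAS. The 3 SPI arrays lay within a narrow range above all others, and the WPH and CAS arrays were mixed. SPI averaged 1.5-fold the CAS level, with a log2 change of 0.61 (95% interval 0.08 to 1.15) that did not pass after adjustment (adjusted p = 0.0975), except without CAS replicate 2 (adjusted p = 0.0490). In the wash-blocked fit the log2 change was -0.05. Against WPH the log2 change with SPI was 0.71 (adjusted p = 0.0632, or 0.0418 without WPH replicate 3 and 0.0478 after median centring), and with WPH against CAS it was -0.09 (-0.63 to 0.44; adjusted p = 0.789).

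The balance of these signals within an array was compared next, which is free of any scale shared by the whole array. The log2 ratio of Cd8a to Cd8b signal was -0.007 to 0.60 on SPI arrays, 0.15 to 0.89 on WPH arrays and -2.87 to -2.53 on CAS arrays. With every signal under 100 raised to 100, the CAS ratios became -0.68 to -0.41 and still lay below all SPI and WPH ratios. The log2 ratio of Cd4 to Cd8a was -0.12 to 0.57 with SPI, -1.32 to -0.18 with WPH and 2.43 to 2.98 with CAS, or 0.24 to 0.86 with CAS once raised to 100, a range that overlaps that of SPI. The log2 ratio of Cd3g S79711_at to Cd3d was 0.04 to 0.29 with SPI, -0.68 to -0.30 with WPH and -0.47 to 0.007 with CAS, so that SPI stood above both other diets. Of the 9 comparisons of ratios, 7 had no overlap between diets on the signals as deposited and reached the smallest two-sided p that an exact permutation test of 3 against 3 arrays allows, 0.1 (0.129 after adjustment over the 9). No p under 0.05 was possible in this design. Cd8a entered the comparison through the SPI and WPH arrays, so that some difference from CAS was built into the ratios that include it.

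**Figure D2:**
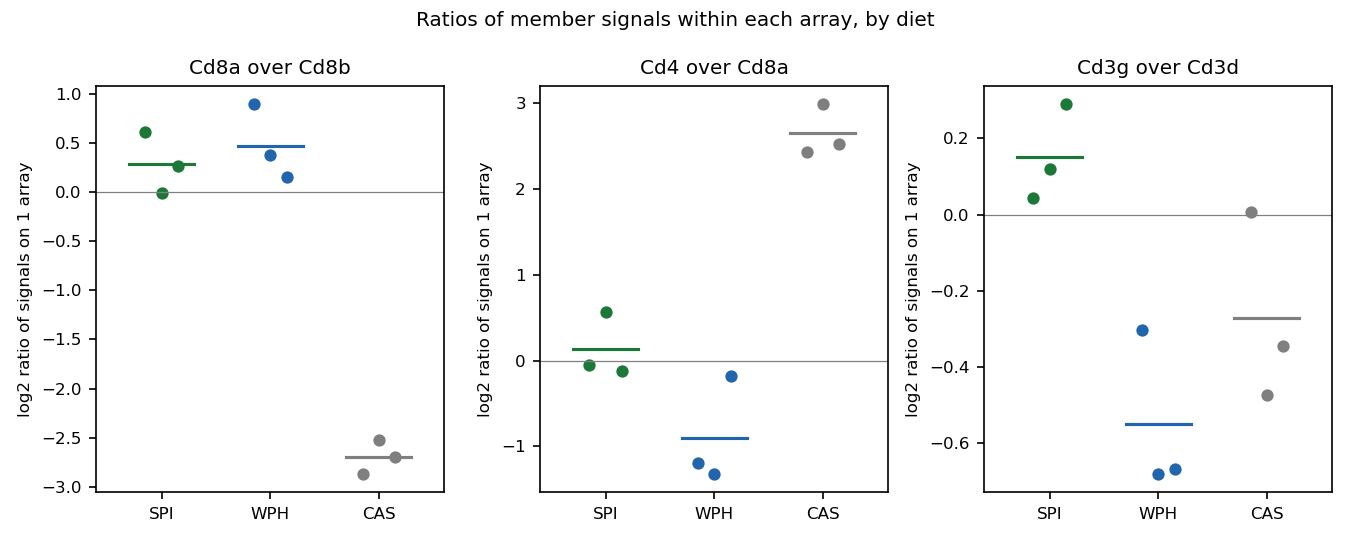
Log2 ratio of the signals of 2 member genes on the same array (vertical axis) for Cd8a over Cd8b, Cd4 over Cd8a and Cd3g (S79711_at) over Cd3d, with SPI, WPH and CAS from left to right, 1 point per array and the diet mean as a bar. The Cd8a over Cd8b ratio was -2.53 or less on CAS arrays and -0.007 or more on all others.

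Cd5 and Cd2 encode receptors that tune the strength of T cell activation. Cd5 probe set D10728_at had signals of 132.1, 61.3 and 112.2 with SPI, 269.0, 198.2 and 242.2 with WPH, and 35.8, 86.6 and 55.0 with CAS. The WPH arrays stood above all others, and the SPI and CAS arrays overlapped. The increase with WPH over CAS was at least 2.36-fold (log2 change 2.08 ± 0.371; adjusted p = 0.000915), and SPI was lower than WPH by a log2 change of -1.28 (95% interval -2.09 to -0.46; adjusted p = 0.0323). This SPI against WPH call was lost when any of 5 single arrays (SPI replicates 2 or 3, or any WPH array) was left out, at adjusted p values of 0.0578 to 0.0954, and in the wash-blocked fit (0.0871). SPI against CAS gave a log2 change of 0.80 (-0.01 to 1.62; adjusted p = 0.155, or 0.0471 without SPI replicate 2).

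The other Cd5 probe set, X78985cds_s_at, ranked the diets alike but with wider spread. Its signals were 123.0, 156.9 and 128.9 with SPI, 250.4, 182.9 and 166.0 with WPH, and 153.7, 39.4 and 102.9 with CAS. The log2 change for WPH against CAS was 1.20 ± 0.412 (adjusted p = 0.0385), a call lost without 6 of the 9 arrays in turn (adjusted p = 0.0503 to 0.119) and in the wash-blocked fit (0.265). For SPI the log2 change was 0.67 against CAS (adjusted p = 0.300) and -0.54 against WPH (adjusted p = 0.411). Cd2 (X05111_at), whose product binds CD48 on the opposing cell in the rat, had 72.4, 45.1 and 55.3 with SPI, 75.8, 87.1 and 47.6 with WPH, and 13.3, 46.0 and 21.2 with CAS. Each signal was under 100, so that no fold or test is given.

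Lck encodes the kinase that starts the signal. Probe set rc_AA800684_at had signals of 650.6, 827.0 and 744.0 with SPI, 957.7, 1091.4 and 1038.1 with WPH, and 715.0, 611.6 and 622.7 with CAS. The WPH arrays were above all others, and SPI and CAS overlapped. WPH was 1.58-fold above CAS (log2 change 0.66 ± 0.120; adjusted p = 0.000991), a call that held in the wash-blocked fit (adjusted p = 0.0167), and SPI differed from CAS by a log2 change of 0.19 (95% interval -0.08 to 0.45; adjusted p = 0.322). SPI was lower than WPH by a log2 change of -0.48 (-0.74 to -0.22; adjusted p = 0.0163), which was lost without SPI replicate 1 (adjusted p = 0.0707), without WPH replicate 2 (0.0636) and in the wash-blocked fit (0.124). For Cd3g, Cd3d and Cd8a, by contrast, no SPI array overlapped the CAS arrays.

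Cd53 encodes a tetraspanin found on lymphocytes, monocytes and granulocytes. Probe set M57276_at had signals of 1109.1, 1141.4 and 1182.8 with SPI, 1231.4, 1163.7 and 1214.3 with WPH, and 679.4, 867.3 and 419.9 with CAS. The SPI and WPH arrays were close to each other, whereas the CAS arrays were lower and differed much among themselves. The rise was 1.84-fold with WPH (log2 change 0.94 ± 0.205; adjusted p = 0.00348) and 1.75-fold with SPI (log2 change 0.87; adjusted p = 0.0110). In the wash-blocked fit both were lost, at adjusted p values of 0.0757 for WPH and 0.381 for SPI, although the log2 changes, 0.89 and 0.77, were of like size.

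Ptprc encodes CD45, the phosphatase that keeps Lck ready to act and that all nucleated blood cells carry. Probe set M10072mRNA_s_at, the steadiest of the 3, had signals of 296.4, 202.8 and 242.1 with SPI, 193.4, 255.9 and 189.2 with WPH, and 257.1, 244.0 and 223.7 with CAS. The diets overlapped completely, with log2 changes of -0.19 for WPH against CAS (95% interval -0.60 to 0.21; adjusted p = 0.438) and 0.02 for SPI against CAS (-0.39 to 0.42; adjusted p = 0.963). M25823_s_at gave 146.9, 128.2 and 161.7 with SPI, 234.3, 158.1 and 185.2 with WPH, and 161.4, 208.2 and 132.9 with CAS, and its adjusted p values were 0.501 for WPH and 0.619 for SPI against CAS. K03039mRNA_s_at gave 498.0, 268.4 and 640.8 with SPI, 608.0, 276.9 and 211.5 with WPH, and 252.8, 482.8 and 250.1 with CAS. Here arrays of the same pool differed by more than the diets did, and the interval for WPH against CAS was -0.84 to 0.99 on the log2 scale. None of the 3 Ptprc probe sets passed in any comparison.

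**Figure D3:**
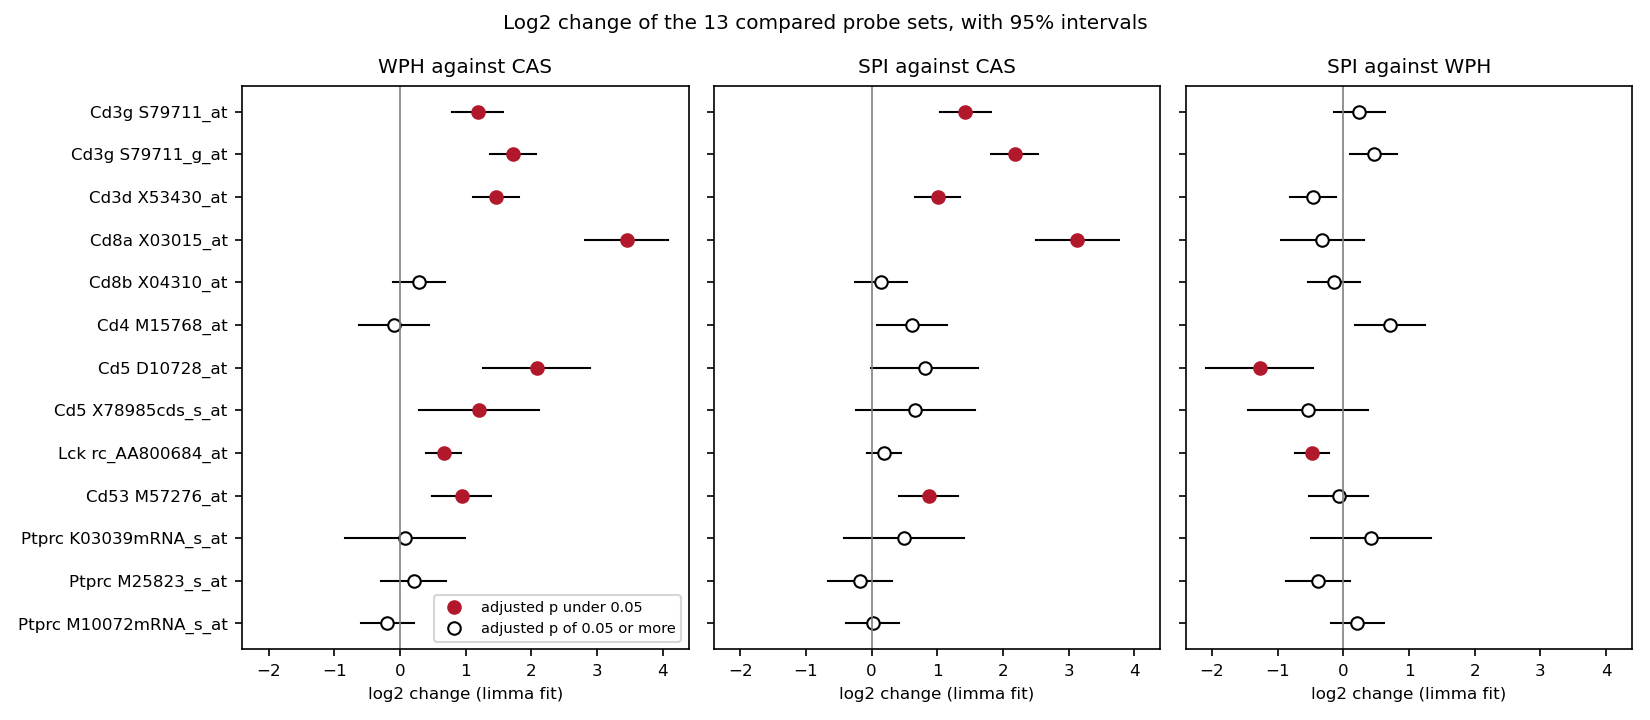
Log2 change of the 13 compared probe sets (horizontal axis, limma fit) with 95% intervals, for WPH (left) and SPI (middle) against CAS and for SPI against WPH (right), with filled circles for an adjusted p under 0.05. Filled circles are 8, 5 and 2 in number. The Cd8a changes against CAS, 3.45 with WPH and 3.13 with SPI, fall to 2.28 and 1.96 when signals under 50 are raised to 50.

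Over the 9 arrays, log2 signals of Cd3g, Cd3d, Cd8a and Cd53 ran together, with Pearson correlations of 0.84 to 0.94 between probe sets of different genes. Lck followed them less closely (0.53 to 0.83), as did Cd8b (0.51 to 0.66) and Cd4 (0.13 to 0.43), and the Ptprc probe sets did not follow them (-0.34 to 0.37) or one another (-0.29 to 0.46). The Cd3g pair correlated at 0.97, against 0.39 for the Cd5 pair. Arrays of 1 diet share a pool and mostly a wash round, so that these values describe the diet pattern and carry no test. Among annotated genes outside the members, the patterns most like that of Cd3g S79711_at belonged to Mmp2 (r = 0.96), a matrix metalloproteinase, Igf2 (0.95), a growth factor, Hspb2, a small heat shock protein, Bdnf, a neurotrophin, Serping1, a complement inhibitor, and Pf4, a platelet chemokine. Those most like the mean of the standardised member signals belonged to Ptms (r = 0.97), Fstl1, Bdnf, Lpl, Rpl14 and Psmc2.

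Of 32 other genes listed for T cell signalling and costimulation, 15 were on the array with a single symbol and 10 were compared. With WPH, 6 of the 10 were higher than with CAS, among them Cd247, Lat, Fyn and Thy1, and 1 was lower, against 20.9% higher and 17.9% lower over all probe sets, with median log2 changes of 0.51 for the list and 0.06 for all. Ctla4, Il2rb and Cxcr4, an inhibitory receptor, a cytokine receptor chain and a chemokine receptor, did not pass, with log2 changes of 0.08 to 0.20 for WPH against CAS. With SPI, 0 were higher and 1 was lower than with CAS (median 0.14), where 12.0% and 10.2% of all probe sets were. Against WPH, 0 were higher and 3 lower with SPI (Fyn, Thy1 and Cd44), where 10.1% and 9.83% of all were. In the wash-blocked fit, where calls fell across the series, Thy1, Cd44 and Cd48 were still higher with WPH than with CAS. The WPH calls of Cd247, Lat and Fyn were lost there. Cd247, the CD3 zeta chain, had signals of 188.5, 162.0 and 167.8 with SPI, 238.7, 204.9 and 179.4 with WPH, and 157.0, 140.9 and 127.6 with CAS (log2 change 0.55 for WPH against CAS; adjusted p = 0.0308; 0.29 for SPI against CAS; adjusted p = 0.300). The order of diets was the one seen for Cd3d, with smaller steps. Lat, the membrane adaptor downstream of the receptor, changed against CAS by a log2 value of 0.61 for WPH (adjusted p = 0.00496) and gave 0.23 for SPI (adjusted p = 0.300). Thy1, which in the rat is carried by stromal cells, neurons and young T cells, averaged 2211 with SPI, 4659 with WPH and 1461 with CAS. Cd28, Cd40lg, Il2ra, Il7r and Tnfrsf4, which mark resting or activated T cells, had means under 100 in every diet.

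The listed gene that was lower with both WPH and SPI was Cd52, a small anchored glycoprotein of lymphocytes that is also made in large amounts by the epididymis. Probe set X76697_at had signals of 18.6, 7.4 and 7.7 with SPI, 20, 7 and 8.6 with WPH, and 3174.1, 3687.3 and 3395.6 with CAS. It was at least 34.2-fold lower with SPI (adjusted p = 4.94e-07) and with WPH (adjusted p = 2.23e-07) than with CAS, and so moved against Cd3g, Cd3d and Cd8a. It entered the comparison through the CAS arrays alone, so that some difference was built in here too.

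A probe set for the T cell receptor beta chain, X14319cds_g_at, has no single symbol in the annotation and was examined because the study names its accession. It had signals of 530.1, 488.6 and 417.9 with SPI, 733.5, 703.5 and 771.7 with WPH, and 384.1, 328.7 and 320.0 with CAS. The 3 diets did not overlap and stood in the order of Cd3d. The log2 change was 1.10 ± 0.128 for WPH (adjusted p = 4.12e-05) and 0.47 ± 0.128 for SPI (adjusted p = 0.0208) against CAS, and -0.63 for SPI against WPH (adjusted p = 0.00546). In the wash-blocked fit neither SPI call passed, at log2 changes of 0.47 against CAS (adjusted p = 0.318) and -0.56 against WPH (adjusted p = 0.0505). The other probe set of that accession, X14319cds_at, was under 100 in every diet, with means of 7.73 with SPI, 11.2 with WPH and 11.2 with CAS. A probe set for an immunoglobulin gamma heavy chain, M28670_at, a product of plasma cells, was found in the same way. It averaged 275 ± 19.6 with SPI, 276 ± 3.29 with WPH and 85.2 ± 16.7 with CAS (SD, n = 3). The log2 changes against CAS were 1.70 for SPI (adjusted p = 4.95e-05) and 1.71 for WPH (adjusted p = 1.49e-05). With a CAS mean under 100, it entered through the SPI and WPH arrays, so that some difference from CAS was built in.

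Among leukocyte integrins and signalling proteins, 17 of 29 listed genes were on the array and 14 were compared. With WPH, 6 were higher than with CAS (Spn, Cd37, Coro1a, Cd9, Cd81 and Cd63) and 3 were lower. Over all probe sets, 20.9% were higher and 17.9% lower. The lower ones were Cd82, Lyn (log2 change -0.83; adjusted p = 0.00632) and Cd47 (-0.66; adjusted p = 0.0258). With SPI, 2 were higher and 1 lower, near the background of 12.0% and 10.2%. With SPI against WPH 2 were higher and 3 lower, where 10.1% and 9.83% of all probe sets were. Spn (CD43, the sialophorin of T cells) was higher with both, with log2 changes of 1.35 for WPH (adjusted p = 0.0121) and 1.28 for SPI (adjusted p = 0.0269). Its CAS mean was 69.0, so that it entered through the SPI and WPH arrays and some difference from CAS was built in. Coro1a, an actin regulator needed for T cell survival, had signals of 1157.4, 1665.1 and 1149.1 with SPI, 2358.6, 2719.6 and 2631.7 with WPH, and 1366.0, 1423.5 and 1265.6 with CAS, so that the WPH arrays stood above all others (log2 change 0.93 against CAS; adjusted p = 0.000291). Cd82, a tetraspanin, was lower with WPH (log2 change -1.40; adjusted p = 1.11e-06) and with SPI (-0.81; adjusted p = 0.000216) than with CAS. In the wash-blocked fit, where calls fell across the series, Cd37, Cd47 and Lyn no longer passed for WPH against CAS. No gene of this list passed there for SPI against CAS. Itgae, the integrin chain that holds T cells within the epithelium, Itgam and Fgr had means under 100 in every diet.

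Markers of other cells moved with diet as well. Their counts stand beside a background over all probe sets compared. Against CAS, 20.9% were higher and 17.9% lower with WPH, and 12.0% were higher and 10.2% lower with SPI. These shares were smaller in the wash-blocked fit. Summed signals of 15 colon epithelial genes were 42428 to 44453 with SPI, 19018 to 20542 with WPH and 80761 to 86735 with CAS, with 15 of 15 lower with WPH and 12 of 15 with SPI than with CAS. Sums of 7 smooth muscle genes were 138659 to 140699 with SPI, 185055 to 210721 with WPH and 94357 to 100102 with CAS, and 7 of 7 were higher with each diet than with CAS. The ranges did not overlap between diets for either list, and no gene of either was under 100 in every diet. In the wash-blocked fit the counts for WPH were the same, and for SPI against CAS they were 7 of 15 and 3 of 7. Sums of 11 macrophage and dendritic cell genes were 17042 to 17339 with SPI, 12829 to 13995 with WPH and 10216 to 11335 with CAS, with Csf1r and Itgam under 100. Of the 9 compared, 4 were higher and 1 lower than with CAS for each diet, and fewer were higher for each in the wash-blocked fit. The lysozyme gene Lyz2 made up the largest part, with means of 6692 with SPI, 3331 with WPH and 2412 with CAS, whereas Cd14, a receptor of monocytes, was lower with WPH (log2 change -1.04; adjusted p = 0.000249) and with SPI (-0.78; adjusted p = 0.00359). Sums of 5 neutrophil genes were 1182 to 1473 with SPI, 161 to 181 with WPH and 83.4 to 116 with CAS, carried by S100a8 and S100a9 with Cxcr2, Mmp8 and Mmp9 under 100. Of 13 genes of cytotoxic and natural killer cells, 11 had means under 100 in every diet, among them perforin (Prf1), Gzmk and Klrd1. The sums over all 13 were 646 to 774 with SPI, 584 to 843 with WPH and 688 to 759 with CAS, which overlapped, and 0 of the 2 compared passed. Sums of 10 mast cell genes were 719 to 871 with SPI, 790 to 968 with WPH and 968 to 1019 with CAS, with 6 under 100. Of the 4 compared, only Mcpt1 passed against CAS, lower with each diet. Only 2 of 17 B cell and plasma cell genes, Cd79b and Sdc1, were on the array with a single symbol, and their sums were 1493 to 1587 with SPI, 877 to 1116 with WPH and 1575 to 1814 with CAS. The lower sum with WPH came from Sdc1, which epithelial cells also express (means 961 with SPI, 313 with WPH and 1035 with CAS), while Cd79b gave a log2 change of -0.01 for WPH against CAS (adjusted p = 0.955). The part of these shifts in the changes of the T cell genes was not tested.

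**Figure D4:**
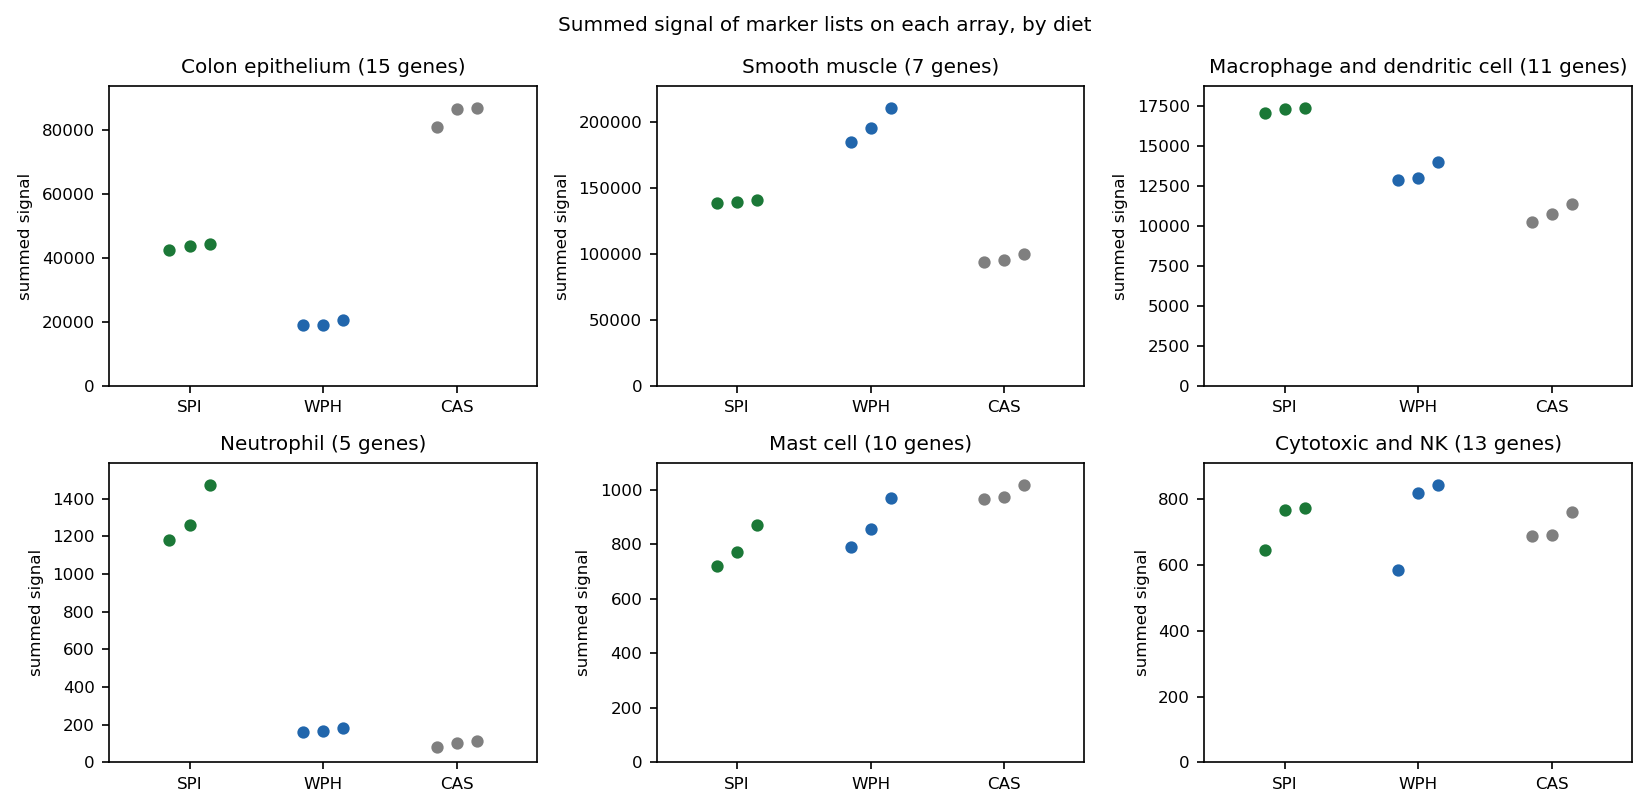
Summed linear signal of 6 marker lists (vertical axis, from 0) on the 3 arrays of SPI, WPH and CAS from left to right, with the arrays of a diet drawn from lowest to highest. Epithelial sums were 19018 to 20542 with WPH and 80761 to 86735 with CAS, and smooth muscle sums lay in the opposite order.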

How the data were processed

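Proximal colon RNA of rats fed SPI, WPH or CAS was hybridized to Affymetrix rat U34A arrays, 3 per diet, by the study (10 µg of cRNA, 16 hours). The deposited values are signal values that the authors computed with MAS 5.0 and scaled so that each array averaged 500, on a linear scale and without detection calls. The depth of an array is not defined as for counts, and precision is limited by 3 arrays per diet. Since these came from 1 pool, p-values measure technical spread between arrays and say nothing of differences between rats.

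Groups were taken from the sample titles. Signals were floored at 0.1 and changed to log2. The 5606 probe sets with a mean of at least 100 in at least 1 diet, out of 8740 without the 59 controls, entered 1 limma 3.58.1 fit (R 4.3.3) of the 3 diets with a variance trend, and p-values were adjusted over all of them by the method of Benjamini and Hochberg. A change needs an adjusted p under 0.05. Folds are ratios of mean signals, and where all 3 arrays of a diet were under 100 each was set to 100 and the fold is a lower bound. The fit was tested on simulated data. Genes were named through the platform annotation (1 symbol for 7018 probe sets, several for 308, none for 1473). In other lists, a gene with several probe sets was represented by its brightest (mean log2). Named were all member probe sets, up to 4 changed genes of each list, and the 6 genes closest in pattern to Cd3g and to the member mean. Of the leukocyte integrin and signalling list, all genes that changed with WPH against CAS were named, after their values were seen. Cd44, Cd48, Cd52, Cd79b, Ctla4, Il2rb, Cxcr4 and list genes under 100 were named after their values were seen. Members, lists and tests were chosen with earlier results of these data known. Wash rounds were inferred from the hybridization times in the instrument records (gaps over 30 minutes), and no label names them.

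Other settings tried were the filter (set at 200, or left out), the floor (at 50) or an added constant of 32 before log2, the normalization (quantile, or centring on array medians), and the model (without the variance trend, or fitted to only the diets in question). Blocks for replicate number or wash round, a comparison inside a round, the methods' t-test, their rule of a 2-fold change in all 9 array pairs, and omission of single arrays were tried too. Promoter sequences are from RefSeq. Other steps ran in Python 3.11.15 (pandas 2.3.3, numpy 2.4.6, scipy 1.17.1, matplotlib 3.10.9).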

Additional observations from a re-analysis of the deposited data

Results flagged for a closer look

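For a probe set of Cd5 and that of Lck, SPI and WPH differed from each other by the test of SPI against WPH itself. These were 2 of the 13 member probe sets compared, a number near the share of all probe sets that were lower with SPI, 9.83%. Cd5 (D10728_at) was lower with SPI than with WPH by a log2 change of -1.28 (limma adjusted p = 0.0323). Lck (rc_AA800684_at) was lower with SPI than with WPH by a log2 change of -0.48 (adjusted p = 0.0163). Neither passed with wash round as a block (log2 change -1.50 and adjusted p = 0.0871 for Cd5, log2 change -0.44 and adjusted p = 0.124 for Lck).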

How the results depend on the processing

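Over all alternatives, 776 values of single probe sets kept their direction and their side of the threshold, 34 were no longer past it, 11 passed newly and 15 changed sign. The comparison inside a round, made for WPH against CAS and for SPI against WPH, gave the same estimates as the wash block. It is counted again among these values and is no separate check. The numbers of changed probe sets stayed within 1.5 times of 8 for WPH and 5 for SPI against CAS, and of 2 for SPI against WPH, except as follows. For SPI against WPH the number was 1 without a filter, 4 without the variance trend (Cd3g S79711_g_at and Cd3d passed) and 1 with the replicate block. It was 0 with wash round as a block, which here is the comparison within the second round. By the methods' t-test it was 0 after adjustment or 5 at P under 0.05. For SPI against CAS it was 2 with wash round as a block. By the methods' pairwise rule of a 2-fold change in every array pair it was 4 for WPH and 3 for SPI against CAS, and 0 between SPI and WPH. With 1 array left out it ran from 7 to 8 for WPH and from 5 to 6 for SPI against CAS, and from 0 to 2 between SPI and WPH, where the 0 came without WPH replicate 2. Over the 9 probe sets with a mean of at least 100 in all diets, a choice made after the data were seen, it was 4 for WPH and 3 for SPI against CAS, and 1 between SPI and WPH.

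Replicate numbers did not pair the samples, since same-numbered arrays of different diets had correlated deviations over 0.1 in 1 of 9 pairs (-0.27 to 0.24), against 8 of 18 other pairs (-0.34 to 0.29). The replicate block gave 8, 5 and 1 changed probe sets.

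Every change of sign was in a value of Ptprc or Cd4 that did not pass the test. With wash round as a block, and within the first round, the log2 change for WPH against CAS was -0.17 for Ptprc K03039mRNA_s_at, -0.0588 for M25823_s_at and 0.0853 for M10072mRNA_s_at. With that block the log2 change for SPI against CAS was -0.0543 for Cd4 and -0.15 for Ptprc K03039mRNA_s_at. With 1 array left out, WPH against CAS ran from -0.37 to 0.39 for Ptprc K03039mRNA_s_at and from -0.26 to 0.13 for Cd4, and SPI against CAS ran from -0.12 to 0.15 for Ptprc M10072mRNA_s_at. The causes were not tested. Signals under 100 have no detection call, so that the levels of Cd2 in all diets and of Cd8a with CAS are not resolved.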
